A study of Homo sapiens with 6 samples.

Results

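Tight junctions seal the space between neighbouring epithelial cells near their apical edge. Claudins, membrane proteins with 4 transmembrane segments, form the strands of the junction and set which ions pass, while occludin and the junctional adhesion molecule F11R (JAM-A) lie beside them in the membrane. The zonula occludens proteins bind the tails of these membrane proteins inside the cell and tie them to actin; in colorectal epithelium they are used as markers of polarity and of the epithelial state.

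The 9 genes described here were the claudins CLDN1, CLDN3, CLDN4, CLDN7 and CLDN12, occludin (OCLN), F11R, and the scaffolds TJP1 (ZO-1) and TJP3 (ZO-3). They were chosen by name, as all rows of the transcript count table that carry one of these 9 symbols in GENCODE v29 (GRCh38). All 9 had rows, out of 18768 genes, and together they held 44 of the 98803 matched transcripts. RNA sequencing was done on HCT116, a human colorectal carcinoma cell line, transfected with a short interfering RNA against the long non-coding RNA AC010789.1 (si-AC010789.1, n = 3 libraries) or with a negative control (siRNA-NC, n = 3). No other agent or genotype separated the groups, and 1 siRNA was used. The study calls the libraries biological repeats and mentions that they may have come from cells of different generations, and p-values measure the spread between them. The level of AC010789.1 itself was not analysed here. The comparison asks whether genes of the tight junction differ when the lncRNA is silenced, in a study about epithelial-mesenchymal transition.

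The libraries held between 11277222 and 13443866 counts, which put 3 counts at 0.223 to 0.266 CPM (counts per 1e6 matched counts of the library). The log2 CPM of any 2 libraries correlated at r = 0.977 to 0.984 across 13764 genes. CPM values of genes and transcripts used library sizes after the filter on low counts, scaled by edgeR's TMM factors (0.993 to 1.007). The labelled line was checked against epithelial markers, and several of these were low or without rows. KRT8, KRT18 and ELF3 were abundant, with at least 744 counts in every library, whereas EPCAM had 35 to 68 counts, CDH1 8 to 13 and CDH17 0 to 2; 6 of the 10 epithelial markers had rows (KRT19, VIL1, CDX2 and ESRP1 did not), and their summed level was 1074 to 1306 CPM with siRNA-NC and 861 to 1111 CPM with si-AC010789.1. Of 6 fibroblast markers 4 had rows, among them COL1A1 with 426 to 616 counts and PDGFRB with 185 to 235, and they summed to 59.6 to 69.2 CPM with siRNA-NC and 63.8 to 68.6 CPM with si-AC010789.1. Endothelial markers summed to at most 2.51 CPM and leukocyte markers to at most 1.60 CPM, over 2 markers with rows in each list. No marker of these lists passed the adjusted threshold. The epithelial markers went in both directions. ELF3, an epithelial transcription factor, had 1030, 1019 and 1184 counts with siRNA-NC and 787, 744 and 825 with si-AC010789.1, without overlap. Its log2 fold change was -0.40 (SE 0.092, unadjusted p = 0.0041, adjusted p = 0.110, edgeR), and KRT8 had -0.43 with overlapping groups (adjusted p = 0.311). EPCAM had 0.45 (adjusted p = 0.326) and KRT18 0.084 (adjusted p = 0.831), both with overlapping groups. CDH1, too low to be tested, had 8, 9 and 9 counts with siRNA-NC and 10, 10 and 13 with si-AC010789.1, without overlap. The identity of the line and the part of these markers in the results below was not tested. In bulk RNA a change in the number of cells of a kind and a change in RNA per cell cannot be told apart.

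Sequences are shown first for the pair of results that they carry. One is an alternative exon of TJP1, at chr15:29719777-29720016 on the minus strand (GRCh38). It is 240 bases long and codes for 80 residues, so that the reading frame is kept when it is left out. This exon corresponds to the alternative alpha region of ZO-1, and it is printed because the counts of the transcripts that hold it did not overlap between the groups, a pattern picked after the values were seen that did not pass the adjusted threshold in edgeR. In the first line the exon of TJP1-202 is in capitals between 15 bases of each neighbouring exon, and the second line is the junction of TJP1-212, which lacks it.
TJP1 exon in its neighbours: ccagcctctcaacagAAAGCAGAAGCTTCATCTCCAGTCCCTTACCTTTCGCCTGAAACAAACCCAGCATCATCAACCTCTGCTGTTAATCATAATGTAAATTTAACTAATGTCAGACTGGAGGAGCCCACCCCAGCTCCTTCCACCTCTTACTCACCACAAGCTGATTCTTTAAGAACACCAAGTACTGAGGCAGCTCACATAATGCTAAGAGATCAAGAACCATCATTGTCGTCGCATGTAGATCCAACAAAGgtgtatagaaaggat
TJP1 junction without the exon: ccagcctctcaacaggtgtatagaaaggat

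The other set bears on the microRNA of this study, miR-432-3p, which the authors examined as a partner of AC010789.1. Its mature sequence (RefSeq, chr14:100884544-100884564, plus strand) has its seed, bases 2 to 8, in capitals. Annotated 3′ UTRs of the 9 genes were searched on the transcript strand for the 7-base matches CCATCCA and CATCCAA, which overlap in 6 bases. These matches stood in 4 of the 9 genes, CLDN3, CLDN12, OCLN and F11R, and in 21.6% of the 19477 genes with an annotated 3′ UTR. One match of each gene is shown in capitals with 10 bases on either side; microRNA was not measured in these libraries, and a match is a description of letters only.
hsa-miR-432-3p: cUGGAUGGcuccuccaugucu
CLDN3: gcgcaccaggCCATCCAgcgtgcagcc
CLDN12: agatctggttCCATCCAgtaagacatt
OCLN: gtgcatgtgtCATCCAAtcccatatga
F11R: ccatctaccaCCATCCAccagtctatt

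The matches lie at chr7:73769300-73769306 (CLDN3, minus strand), chr7:90414486-90414492 (CLDN12, plus strand), chr5:69557500-69557506 (OCLN, plus strand) and chr1:160997087-160997093 (F11R, minus strand). Whether the 4 genes with a match share a direction could not be told from these values. CLDN12 was lower with si-AC010789.1 at the unadjusted threshold, OCLN and F11R varied within both groups, and CLDN3 was under the filter on low counts.

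Across gene sums, no member differed between si-AC010789.1 and siRNA-NC after adjustment. Of the 9 genes 8 passed the filter on low counts and 0 of these 8 had an adjusted p under 0.05 in edgeR's quasi-likelihood test, against 0.944% of all 13764 genes tested. At an unadjusted p under 0.05 there were 2, TJP3 and CLDN12, both lower, against 17.2% of all genes. DESeq2 called the same 2 genes, of 6 members to which it gave an adjusted p, against 5.04% of all 10289 genes with one. With the criteria of the study (an unadjusted p under 0.05, and a log2 fold change beyond 1 in either direction) the count was 0, against 0.777%. Here and below these cut-offs were applied to edgeR values, whereas the study applied them to Cuffdiff results. The paper also describes excluding genes that differed within a group, a step not taken here. The median log2 fold change of the 8 genes was 0.0046, beside -0.00059 over all genes. Groups did not overlap in 1 of the 8, TJP3, against 25.1% of all genes.

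**Figure D1:**
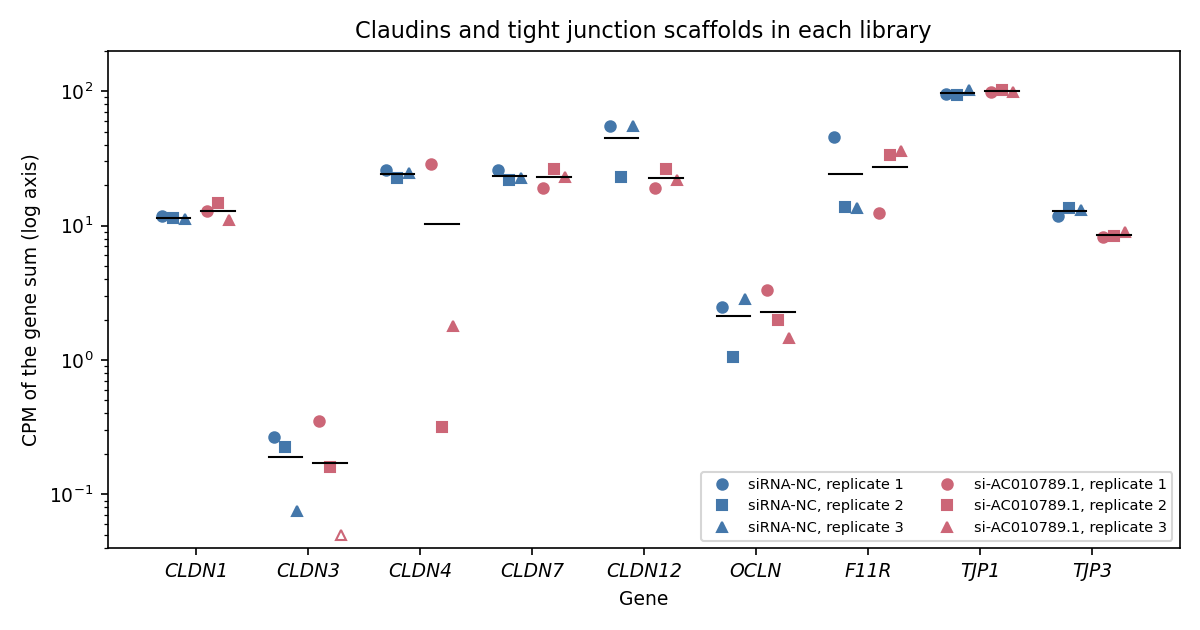
CPM of each gene sum (log axis) in the 3 siRNA-NC libraries (blue) and the 3 si-AC010789.1 libraries (red), with symbols for the replicate number, a black line for the group mean, and an open triangle drawn at 0.05 for the 1 library with a count of 0. TJP3 is the only gene without overlap between the groups; CLDN4 spans 0.320 to 28.9 CPM within si-AC010789.1, and F11R has high and low libraries in both groups.

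Among the scaffolds, TJP3 was the gene that came nearest to the threshold. TJP3 encodes ZO-3, a scaffold of the zonula occludens family that is restricted to epithelia. Its sums were 134, 179 and 174 counts with siRNA-NC and 94, 104 and 111 counts with si-AC010789.1, or 12.8 ± 0.837 against 8.50 ± 0.424 CPM (SD, n = 3). All 3 knockdown libraries lay under all 3 controls. TJP3 was thus 1.51-fold higher with siRNA-NC, with a log2 fold change of -0.59 (SE 0.107, 95% interval -0.85 to -0.33), an unadjusted p of 0.0011 and an adjusted p of 0.0698 in edgeR. DESeq2 gave an adjusted p of 0.0321 with a log2 fold change of -0.59, so that the call depended on the tool. Leaving out each library in turn kept the log2 fold change between -0.64 and -0.55.

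TJP1, the founding member of the same scaffold family, was the most abundant of the 9 genes in CPM and kept a steady sum. Its sums were 1071, 1251 and 1355 counts with siRNA-NC and 1130, 1285 and 1226 counts with si-AC010789.1. These corresponded to 97.0 ± 4.07 and 100.2 ± 2.14 CPM (SD, n = 3). The groups overlapped, and the log2 fold change of 0.047 (SE 0.054, 95% interval -0.082 to 0.18; adjusted p = 0.709, edgeR) was smaller than the spread between libraries. The transcripts behind this steady sum are described further below.

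The claudins did not move together. CLDN12, an atypical claudin whose tail lacks the PDZ-binding motif of the classic members, had 622, 305 and 737 counts with siRNA-NC and 219, 331 and 268 counts with si-AC010789.1. The means were 44.5 ± 18.6 and 22.4 ± 3.71 CPM (SD, n = 3). The second control library, at 23.0 CPM, lay among the knockdown libraries, which spanned 19.1 to 26.4 CPM. The log2 fold change was -0.99 (SE 0.340, 95% interval -1.80 to -0.17), with an unadjusted p of 0.0247 and an adjusted p of 0.223 in edgeR, and DESeq2 gave an adjusted p of 0.0498. Without the second control library it was -1.30 (adjusted p = 0.0653), and without the third it was -0.80. Exons of CLDN12 overlap those of GTPBP10 and CDK14 on the same strand, so that reads in these exons may belong to either gene.

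CLDN4, a claudin abundant in colonic epithelium, was split within the knockdown group. It had 290, 298 and 326 counts with siRNA-NC, whereas the si-AC010789.1 libraries had 331, 4 and 22 counts. The first knockdown library thus stood at the level of the controls, at 28.9 CPM, and the other 2 at 0.320 and 1.78 CPM. The log2 fold change of -1.24 had an SE of 1.14 (95% interval -3.98 to 1.50; adjusted p = 0.636, edgeR), and DESeq2 gave no p for it. Without the first knockdown library it was -4.52 (adjusted p = 0.0608), and without the second it was -0.66. Of 5 annotated transcripts of CLDN4, 2 had rows in the table, and counts of the other transcripts were not analysed here.

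CLDN1 and CLDN7, both classic claudins, were steady. CLDN1 had 132, 152 and 150 counts with siRNA-NC and 146, 183 and 137 counts with si-AC010789.1, and its log2 fold change was 0.16 (SE 0.126, 95% interval -0.14 to 0.46; adjusted p = 0.571, edgeR). CLDN7 had 292, 290 and 303 counts with siRNA-NC and 217, 331 and 286 counts with si-AC010789.1, with a log2 fold change of -0.038 (SE 0.140, 95% interval -0.38 to 0.30; adjusted p = 0.921). In both genes the groups overlapped, and the direction for CLDN7 turned when the first library of either group was left out (log2 fold changes of 0.037 and 0.079). CLDN7 shares exonic bases with ELP5 on the other strand, and whether the counting used strand is not given in the sources used here.

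CLDN3, which is often expressed together with CLDN4 in colon, was barely detected. Its counts were 3, 3 and 1 with siRNA-NC and 4, 2 and 0 with si-AC010789.1, at or near the level of 3 counts, so no fold change is given. An exact two-sided permutation test of its CPM gave p = 1, where 0.1 is the smallest value that 3 against 3 libraries allow.

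Occludin was low and variable. OCLN had 28, 14 and 38 counts with siRNA-NC and 38, 25 and 18 counts with si-AC010789.1, and the groups overlapped. The log2 fold change was 0.082 (SE 0.457, 95% interval -1.01 to 1.18; adjusted p = 0.948, edgeR), with an interval that spans both directions. OCLN has a pseudogene copy in the genome, with which its reads could be shared.

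F11R, the junctional adhesion molecule that helps to position the polarity complex, had 515, 181 and 179 counts with siRNA-NC and 143, 423 and 443 counts with si-AC010789.1. Each group thus held libraries between 12.5 and 13.6 CPM and libraries at 33.8 CPM or above. The difference between groups (log2 fold change 0.18, SE 0.596, 95% interval -1.25 to 1.62; adjusted p = 0.909, edgeR) was far smaller than this spread. Of the 6 annotated transcripts of F11R 3 had rows, and F11R-206, a protein-coding transcript with the same seed match, was not among them.

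**Figure D2:**
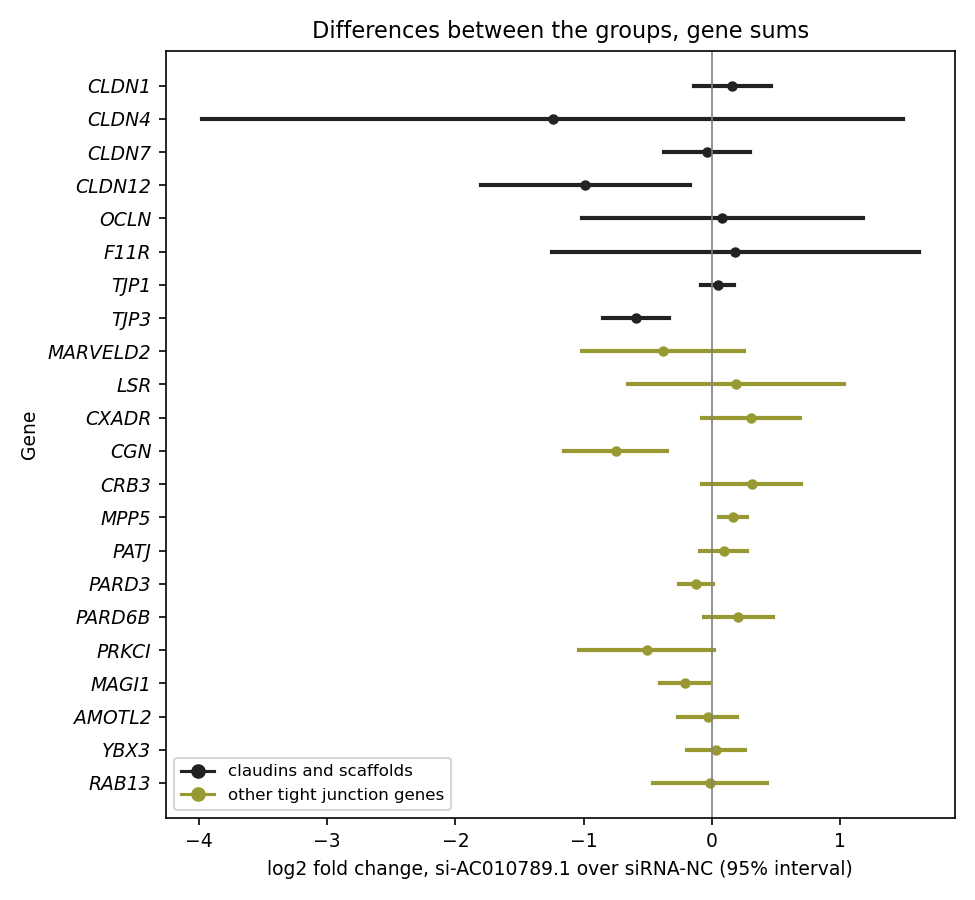
log2 fold change of the gene sums, si-AC010789.1 over siRNA-NC, with 95% intervals from edgeR, for the 8 tested members (black) and for tested genes named from the list of other tight junction genes (olive). The intervals of TJP3 and CLDN12 lie below 0 before adjustment for the number of genes, and those of CLDN4, OCLN and F11R are the widest among the members.

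Levels of different genes were compared per length, as counts over annotated transcript length scaled to the same total in every library, the usual TPM scale. Over the 6 libraries CLDN7 had the highest level, at 43.2 ± 5.40 TPM (SD), followed by TJP1 at 31.9 ± 1.33 and CLDN12 at 23.7 ± 8.53. F11R at 14.1 ± 5.44 and CLDN4 at 13.5 ± 11.4 came next (CLDN4 stood above F11R in each siRNA-NC library, and the pooled order turned on 2 knockdown libraries with CLDN4 at 0.339 and 1.88 TPM), and then TJP3 at 7.95 ± 1.24 and CLDN1 at 7.32 ± 0.907. OCLN, at 1.51 ± 0.954, and CLDN3, at 0.272 ± 0.194, were the lowest. Each neighbouring pair in this order overlapped in range across libraries, apart from the step from CLDN1 to OCLN and that from OCLN to CLDN3. With the length of the longest transcript for every gene, CLDN7 stood at 30.3, below TJP1 at 31.1, and OCLN at 0.855.

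For the 2 genes with the highest level per length, genes with the most similar log2 CPM across the 6 libraries were looked up as a description. AASS (r = 0.990), FAM241B (r = 0.987) and SIRT6 (r = 0.983) were the most similar to CLDN7, and 30 genes had r over 0.95. FO538757.1 (r = 0.992), PIK3IP1 (r = 0.991) and ZNF544 (r = 0.989) were the most similar to TJP1, with 25 genes over 0.95. These 6 libraries are the same ones that the comparison uses. With 13764 tested genes searched over 6 libraries, correlations this high can arise by chance, and whether these genes exceed that was not tested.

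Single transcripts varied far more than the sums. Of the 44 transcripts 22 passed the filter, and their median coefficient of variation was 49.0% with siRNA-NC and 56.6% with si-AC010789.1, beside 7.86% and 16.5% for the 8 gene sums. Over all transcripts tested the medians were 35.3% and 34.6%, and over all genes tested 9.10% with siRNA-NC and 9.07% with si-AC010789.1. No member transcript had an adjusted p under 0.05 in edgeR, against 0.0135% of 44297 transcripts. At an unadjusted p under 0.05 there were 4, TJP1-212, TJP1-202, TJP1-201 and CLDN4-201, against 5.74% of all transcripts. DESeq2 called 2 of the 22, TJP1-202 and TJP1-201, against 1.55% of 43723 transcripts. By the criteria of the study there were 3, against 3.5%, and the groups did not overlap in 4, against 14.0%.

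Much of this variation was a shift of counts between transcripts of the same gene within a group. CLDN4-201 had 290, 12 and 326 counts with siRNA-NC while CLDN4-203, which starts upstream, had 0, 286 and 0. The same exchange appeared in the first knockdown library, with 31 counts for CLDN4-201 and 300 for CLDN4-203, where the sum stayed near that of the controls. The other 2 knockdown libraries had no count for CLDN4-203. Among controls the sum was steadier than either transcript, and in these 2 knockdown libraries both transcripts were low.

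TJP3 and CLDN7 showed the same kind of exchange. In TJP3, TJP3-207 had 60, 58 and 80 counts with siRNA-NC and 87, 0 and 33 with si-AC010789.1, and TJP3-202 had 60, 69 and 64 against 0, 3 and 43. TJP3-201 had 83 counts in the second knockdown library and 0 in the other 5 libraries. The 3 knockdown libraries thus reached similar sums through different transcripts. In CLDN7, CLDN7-202 ranged from 21 to 158 counts and CLDN7-201 from 3 to 144 over the 6 libraries, while CLDN7-206 kept between 40 and 62 counts.

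CLDN1 and F11R rested on 1 main transcript, whereas CLDN12 and OCLN did not in every library. CLDN1-201 held at least 97.9% of the counts of CLDN1 in every library, and F11R-202 held 86.0% to 97.3% of those of F11R, with 501, 159 and 167 counts against 123, 410 and 430. In CLDN12, CLDN12-201 had 453, 176 and 588 counts with siRNA-NC and 84, 238 and 85 with si-AC010789.1 (log2 fold change -1.56, SE 0.630, adjusted p = 0.870, edgeR). CLDN12-203 had 154, 101 and 128 counts against 116, 62 and 154, with overlapping groups. OCLN-201 had 28, 10 and 38 counts against 38, 12 and 5. OCLN-203, a retained-intron transcript, had 0, 4 and 0 counts against 0, 9 and 13, so that it exceeded OCLN-201 in the third knockdown library.

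**Figure D3:**
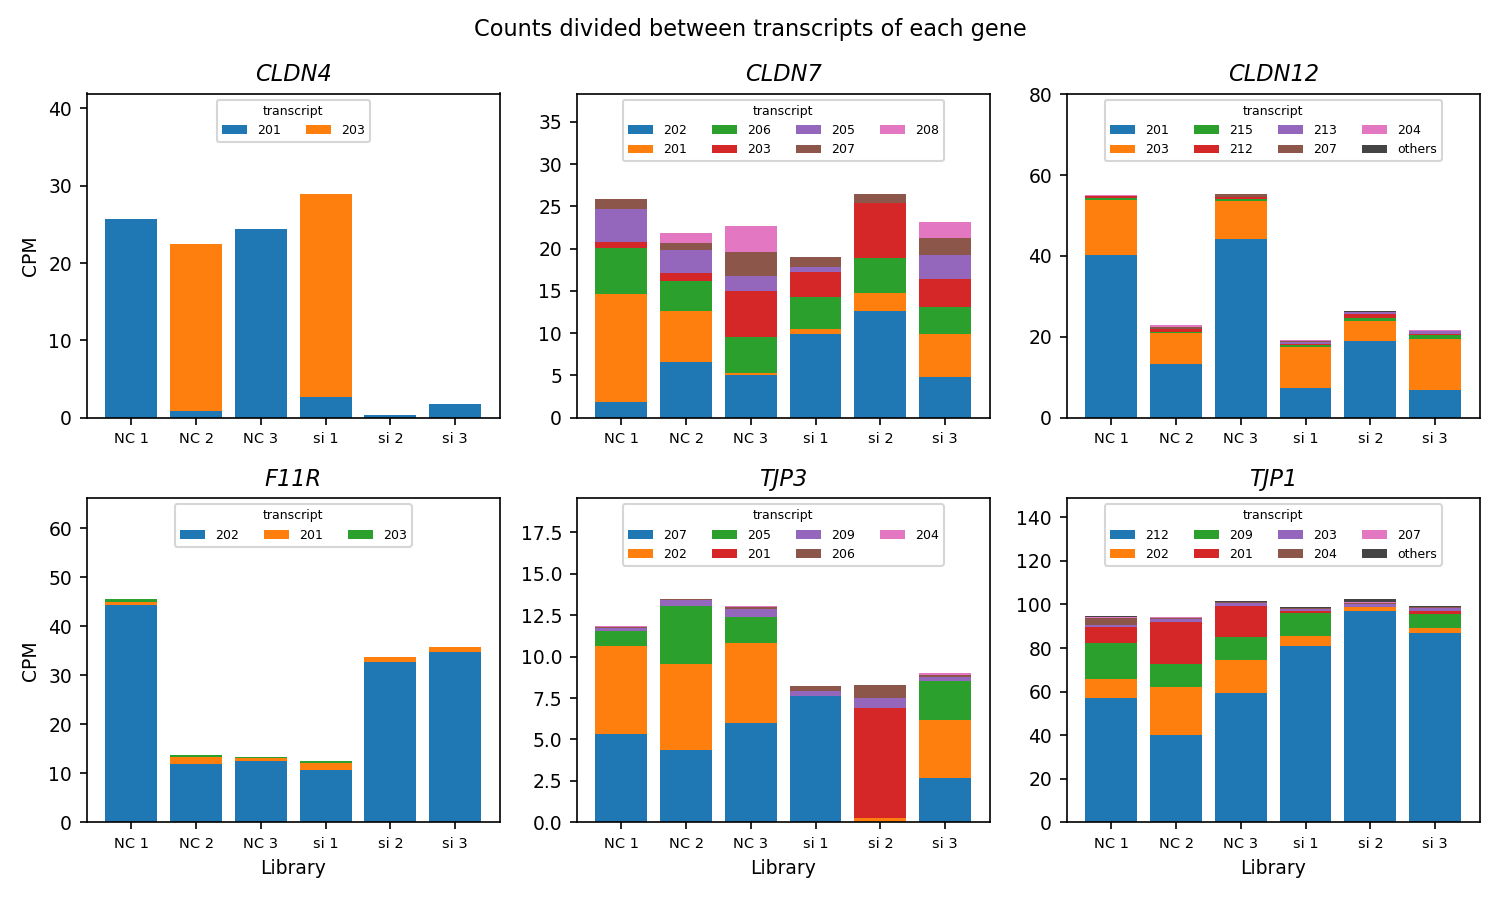
CPM of the transcripts of CLDN4, CLDN7, CLDN12, F11R, TJP3 and TJP1, stacked for each library (NC, siRNA-NC; si, si-AC010789.1), with a colour for each transcript number. CLDN4, CLDN7 and TJP3 exchange transcripts between libraries of the same group, whereas in TJP1 the blue share (TJP1-212) is larger in all 3 knockdown libraries.

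In TJP1 the transcripts differed along the groups while the sum did not. This was singled out after the values had been seen. TJP1-212 had 645, 532 and 789 counts with siRNA-NC and 925, 1213 and 1075 with si-AC010789.1. TJP1-202 had 100, 291 and 203 counts against 53, 25 and 28, and TJP1-201 had 79, 260 and 192 against 12, 0 and 19. In all 3 transcripts the groups did not overlap, upward for TJP1-212 and downward for the other two. TJP1-209 had 186, 139 and 141 counts against 120, 0 and 76, with groups that overlapped in CPM (log2 fold change -1.18, SE 1.46, adjusted p = 0.991, edgeR).

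The log2 fold change was 0.75 (SE 0.181, adjusted p = 0.565) for TJP1-212, -2.38 (SE 0.526, adjusted p = 0.492) for TJP1-202 and -3.99 (SE 1.29, adjusted p = 0.799) for TJP1-201 in edgeR. The adjusted p-values stand against 44297 transcripts. DESeq2 gave adjusted p-values of 0.0945 for TJP1-212, 0.0037 for TJP1-202 and 0.0487 for TJP1-201, so that the calls depended on the tool.

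TJP1-202 and TJP1-201 are the transcripts in the table that hold the 240-base exon printed above, and TJP1-212, TJP1-209 and TJP1-204 join its neighbours directly. Transcripts with the exon had 179, 551 and 395 counts with siRNA-NC and 65, 25 and 47 with si-AC010789.1. Transcripts without it had 871, 678 and 932 counts against 1050, 1219 and 1157. All 3 controls thus had more of the exon-holding form and less of the other form than any knockdown library.

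The share of the exon-holding form among these 5 transcripts was 17.0%, 44.8% and 29.8% with siRNA-NC and 5.83%, 2.01% and 3.90% with si-AC010789.1. The means were 30.5% ± 13.9 and 3.91% ± 1.91 (SD, n = 3), a difference of 26.6 percentage points. The nearest libraries of the groups were the first of each, with 95% Wilson intervals of 14.9% to 19.4% for the control and 4.60% to 7.36% for the knockdown, which cover counting error only. The two-sided exact permutation test gave p = 0.1, the smallest value that this design can give. Shares without overlap always give that value, and the exon was picked for groups without overlap, so the test adds no support. Leaving out each library in turn, within these same picked values, kept the difference between 19.5 and 33.4 points.

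In CPM, the exon-holding form was at 29.01 ± 12.9 with siRNA-NC and 3.83 ± 1.84 with si-AC010789.1, and the other form at 66.1 ± 13.5 and 94.3 ± 2.88 (SD, n = 3). A test of the transcript make-up within each gene (edgeR, added after the data had been seen) gave TJP1 an unadjusted p of 0.0039 and an adjusted p of 0.133. By this test 1.93% of 9046 genes were called at an adjusted p under 0.05, and none of the 5 members that it could test, with unadjusted p-values of 0.130 or more for CLDN12, CLDN7, F11R and TJP3. DESeq2 was not run for this test, and TJP1 was the 1 member at an unadjusted p under 0.05, against 9.12% of the 9046 genes.

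The exon is not the only difference between these transcripts. TJP1-212 and TJP1-201 start at position 29822503 of chromosome 15 and TJP1-202 and TJP1-209 at 29822028, so that each start site occurs with and without the exon. The share of counts on the upstream start among these 4 transcripts was 71.7%, 64.8% and 74.0% with siRNA-NC and 84.4%, 98.0% and 91.3% with si-AC010789.1, which did not overlap either. How the authors' program divided shared reads among transcripts is not given in the sources used here, and its part in this difference was not tested.

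**Figure D4:**
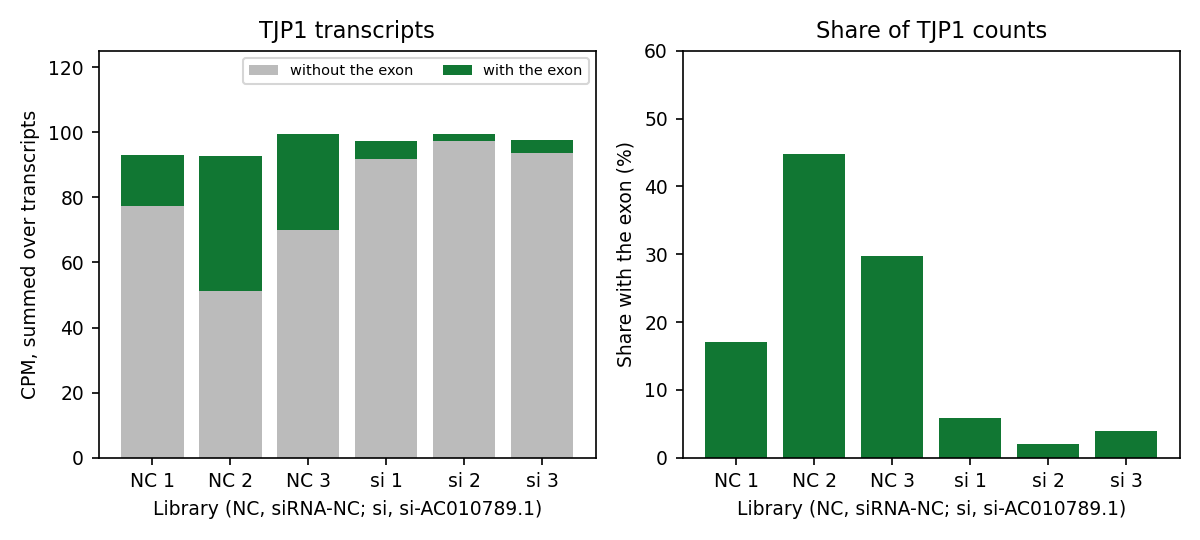
TJP1 transcripts by library (NC, siRNA-NC; si, si-AC010789.1): CPM of transcripts with the 240-base exon (green) stacked on those without it (grey), and the share of the exon-holding form in percent. The total stays level across the 6 libraries while the green share is 17.0% to 44.8% in controls and 2.01% to 5.83% in knockdown libraries.

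Other genes of the tight junction were read from a list of 57 genes (further claudins, tricellulin and angulins, adhesion molecules, polarity proteins and cytoplasmic plaque proteins). Of these 37 had rows and 29 were tested, with a median log2 fold change of -0.033. By edgeR 0 of 29 passed the adjusted threshold, and DESeq2 gave 0 as well; 8 had an unadjusted p under 0.05 (27.6%, beside 17.2% of all genes), 3 higher and 5 lower. Groups did not overlap in 9, 3 higher and 6 lower, of 29, beside 25.1% of all genes. CLDN9, which passed the filter on low counts through its knockdown libraries alone, is among the 3 higher genes in both counts.

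Among the plaque proteins, CGN (cingulin, which links ZO-1 to myosin and microtubules) had 80, 70 and 80 counts with siRNA-NC and 39, 48 and 45 with si-AC010789.1. All knockdown libraries were lower, and the log2 fold change was -0.75 (SE 0.166, adjusted p = 0.103, edgeR), or -0.43 over protein-coding transcripts alone. MAGI1, another membrane-associated scaffold, had -0.21 (adjusted p = 0.250).

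Polarity genes gave small differences in both directions. MPP5 (PALS1), the core of the Crumbs complex, was at 160.0 ± 4.84 CPM with siRNA-NC and 179.5 ± 5.02 CPM with si-AC010789.1 (log2 fold change 0.17, SE 0.046, adjusted p = 0.154, edgeR). PRKCI, the atypical protein kinase C of the Par complex, was at 115.0, 106.8 and 192.7 CPM against 99.9, 96.4 and 95.4 CPM. It had no overlap between groups and a log2 fold change of -0.51 (adjusted p = 0.310), or -0.19 without the third control library. On the log2 scale CRB3 differed by 0.31, PATJ by 0.092, PARD3 by -0.12 and PARD6B by 0.21, and their adjusted p-values were 0.327 or more.

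Membrane proteins beside the claudins were not separated. CXADR, an adhesion molecule of the junction, had a log2 fold change of 0.31 (adjusted p = 0.386, edgeR), MARVELD2 (tricellulin) of -0.38 and LSR (angulin-1) of 0.19. AMOTL2, YBX3 and RAB13, plaque and trafficking genes, had log2 fold changes from -0.033 to 0.033. MARVELD3, JAM3 and MPDZ had no row in the table as analysed here, and CGNL1 was under the filter.

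Of the 19 further claudins on the list 5 had rows and 3 were tested. CLDN9 was the 1 gene of the list to meet the criteria of the study, which 0.777% of all 13764 genes tested met. It is named for that, after its values were seen. It had 1, 4 and 5 counts with siRNA-NC and 17, 22 and 12 with si-AC010789.1, near the lower limit of detection but without overlap. It passed the filter on low counts through its knockdown libraries alone, so no fold or p is given for it, and its call has the same limit.

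The promoters of the members were searched for the E-box letters CAGGTG or CACCTG, each the reverse complement of the other, which ZEB1, a repressor of epithelial genes studied here, is known to bind. RefSeq (GRCh38.p14) gave 14 promoters of 8 members, each of 300 bases, and none for F11R. At least 1 such E-box stood in 6 of these 14 promoters, belonging to OCLN, CLDN3, TJP1, CLDN7 and TJP3, against 20.6% of all 35116 promoters. The promoter of CLDN7 at chr17:7262429-7262728 held 5, a number reached by 0.094% of all promoters, while the other promoter of CLDN7 held 0. For TJP1 the E-box stood only in the promoter at chr15:29969000-29969299. The TJP1 promoter at chr15:29822419-29822718, which covers the start of TJP1-212 and TJP1-201, held 0. For TJP3 the promoter at chr19:3721487-3721786 held 1 and the promoter at chr19:3708134-3708433 held 0. CLDN1, CLDN4 and CLDN12 held none in these windows. TJP3, with 1, and CLDN12, with 0, were both lower at the unadjusted threshold, and CLDN7 was level between the groups. A link between these letters and the direction of a gene was not tested.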

How the data were processed

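Total RNA of 6 HCT116 samples (3 siRNA-NC, 3 si-AC010789.1, grouped by their labels) had been sequenced from paired-end TruSeq libraries. The authors deposited raw counts per Ensembl transcript and library, as whole numbers without normalization. The study's methods name Cuffdiff; the submitters' processing notes name CASAVA 1.8, TopHat2 2.0.6 and the builds mm10 and GRCh38, without a role for each. The counting program is not given in the sources used here.

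Of 98886 transcripts, 98803 were matched to GENCODE v29 (GRCh38) and summed over 18768 genes; 83 were not matched and stayed out. Each library kept at least 99.9% of its counts. Gene sums and transcripts were tested over the whole table with edgeR 4.0.16 in R 4.3.3 (TMM, filterByExpr at its count minimum of 10 and total minimum of 15, then the quasi-likelihood test, Benjamini-Hochberg adjustment, threshold 0.05), which kept 13764 genes and 44297 transcripts. The common biological coefficient of variation was 0.170 for genes and 0.698 for transcripts. DESeq2 1.42.0 was an alternative. Scripts were tested on simulated data. Cuffdiff needs the alignments and was not run.

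All members, up to 3 transcripts of each by mean CPM, and 19 genes of the list of other tight junction genes were named by rule; other transcripts and CLDN9 were named after their values were seen. The members, gene lists, markers and tests were chosen with earlier results of these data known, and the within-gene transcript test and the exon share were added after the data had been seen. Other settings were another scaling, other filters, a replicate block, protein-coding transcripts alone, the criteria of the study and leaving out each library. A gene of the list and a seed match are not reported here.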

Additional observations from a re-analysis of the deposited data

How the results depend on the processing

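With DESeq2 in place of edgeR, 2 gene sums (TJP3, -0.59, and CLDN12, -0.99) and 2 member transcripts (TJP1-202, -2.39, and TJP1-201) were called instead of 0. With the criteria of the study 3 member transcripts and 1 gene of the tight junction list (CLDN9) were called instead of 0. The same criteria called 3.5% of all transcripts and 0.777% of all genes. Under every other setting, leaving out each library included (0 to 0 in each of the 3 counts), the count was 0. Levels per length with the longest transcript moved by more than 1 SD of the libraries for CLDN1 (8.77) and CLDN7 (30.3); OCLN, with a wide spread, went from 1.51 to 0.855.

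Of 386 log2 fold changes under alternatives, over 33 results, 358 kept direction and side of the threshold, 25 turned in sign and 3 passed the threshold only with DESeq2. Signs turned for genes near 0 or with wide spread. Leaving out 1 library gave ranges of -0.15 to 0.079 for CLDN7 (0.037 without the first control, 0.079 without the first knockdown library), -0.30 to 0.36 for OCLN (-0.25 without the second control), -0.11 to 1.02 for F11R (-0.10, -0.11 and -0.059), -0.12 to 1.07 for F11R-202 (-0.11, -0.015 and -0.085), -1.57 to 0.065 for OCLN-201, -0.098 to 0.39 for LSR, -0.11 to 0.042 for AMOTL2 (0.027), -0.036 to 0.14 for YBX3 (-0.0019) and -0.21 to 0.12 for RAB13 (0.069 and 0.028). Over protein-coding transcripts alone, CLDN7 was 0.017, OCLN -0.28, PATJ -0.19 and RAB13 0.0081. CLDN4 kept its sign between -4.52 and -0.66. The cause was not tested.

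Whether the replicate numbers pair the libraries could not be told with 3 libraries per group. The deviations of same-numbered libraries correlated at 0.090, 0.0027 and 0.00066, and those of differently numbered libraries at -0.077 to 0.079. With the replicate block 0 members were called, and the log2 fold changes were -0.59 for TJP3, -0.90 for CLDN12, -2.54 for CLDN4 and 0.017 for RAB13.

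Depth limits CLDN3, OCLN and CLDN9, and the division of reads between transcripts limits single transcripts.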
